A study of Mus musculus with 6 samples.

Results

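The ATP-binding cassette (ABC) transporter family was examined in the livers of mice fed the FFC diet, a dietary model of metabolic dysfunction-associated steatohepatitis (MASH). Members were the protein-coding genes whose symbol is Abc followed by a subfamily letter from a to g and a number, and 49 of the 43346 genes in the table were counted as members. Silencing used an AAV8 construct, and the vector of the control group is not described further. The knockdown group holds 3 libraries (2, 3 and 2600) whose titles name shRNA and S100a11, which encodes a small calcium sensor, and the control group 3 libraries (28, 30 and 31) titled as scramble. Both groups ate the FFC diet, and neither a normal-diet group nor untreated livers were part of the design, so each value describes silencing within the diet. The labels do not say whether the libraries of a group are separate animals, and p-values then measure only the spread between these samples. The tissue is labelled as liver with no sorting step, and neither strain nor age is given.

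ABC proteins use ATP to move lipids, drugs, conjugates, heme precursors or acyl-CoA across membranes. In hepatocytes the canalicular members build bile, the basolateral members return conjugates to blood, ABCA1 starts the formation of HDL, and smaller transporters that work in pairs serve peroxisomes and mitochondria. A few members are not transporters: the sulfonylurea receptors regulate potassium channels, and ABCE and ABCF proteins act on ribosomes.

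Libraries held 53517387 to 78091845 counts, and values are given as CPM, counts scaled to one common library size with TMM factors, in the order 2, 3 and 2600 for the S100a11 shRNA and 28, 30 and 31 for the scrambled shRNA. S100a11 itself stood at 16.0, 3.55 and 3.41 CPM against 15.9, 22.9 and 30.0 CPM. Library 2 was level with the lowest scrambled library, and the change did not pass the threshold (log2 change -1.57 ± 0.56 SE, edgeR adjusted p = 0.0951). S100a11 passed without library 2 (log2 change -2.75, edgeR adjusted p = 0.000441), with limma voom (-1.89, 0.0417) and with library totals alone (-1.90, 0.0424), and not in the other 11 settings (0.0705 to 0.249). Directions are given for the libraries as labelled. One RNA, Gm26917, made up 3.99%, 6.44% and 10.8% of the S100a11 shRNA libraries and 3.16% to 4.42% of the scrambled ones. Reads from a member and from a gene that overlaps its exons may be shared, since neither the counting rule nor its strand setting is known here. Exons of 11 members overlap those of another gene.

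Sequences before the start sites are shown for 5 members whose behaviour is set side by side below. They come from RefSeq on build GRCm38.p6, which matched 37 of the 49 members. Capitals mark a match on either strand to one of 7 motifs. The core promoter motifs were the TATA box (TATAAA), the CCAAT box and the GC box, written GGGCGG. The others were the nuclear receptor core site AGGTCA and the antioxidant response element core TGACNNNGC. Searched as well were the DR4 element of LXR and the DR1 element of PPAR, in which the nuclear receptor core is repeated after 4 bases and after 1 base. Both repeats contain the core site. A match is a description of letters only.

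Abcg5 and Abcg8, whose products pair to export sterols into bile, have start sites 109 bases apart on opposite strands of chromosome 17 (84683011 on the minus strand and 84683121 on the plus strand). RefSeq also gives Abcg8 a start at 84676302 on the plus strand, inside Abcg5, which is where the gene begins in the deposited table. The stretch between the nearer start sites is shown because Abcg5 and the Abcg8 transcripts from 84683121 read outward from it, on the strand of Abcg5 (chr17:84683012-84683120).
Abcg5 and Abcg8: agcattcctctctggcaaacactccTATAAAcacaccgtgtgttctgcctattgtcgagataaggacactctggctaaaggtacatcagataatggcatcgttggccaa
It holds 1 TATAAA match, 84 bases before the Abcg5 start. The same match lies 31 bases before the nearer Abcg8 start, on the strand opposite to Abcg8. Of 32536 promoters 5.89% hold that motif in the 109 bases next to the start.

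Abcb6, the member with the smallest adjusted p, is shown with its 250 bases before the start (chr1:75180393-75180642, minus strand).
Abcb6: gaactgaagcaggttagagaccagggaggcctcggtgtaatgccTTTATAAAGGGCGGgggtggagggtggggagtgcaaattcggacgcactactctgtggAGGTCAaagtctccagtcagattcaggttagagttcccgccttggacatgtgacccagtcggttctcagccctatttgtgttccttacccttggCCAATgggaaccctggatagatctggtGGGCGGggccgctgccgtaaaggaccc
This window holds 2 overlapping TATAAA matches on opposite strands, 2 GGGCGG, 1 CCAAT and 1 AGGTCA. Of all 250-base promoter windows 12.3% hold TATAAA, 33.0% GGGCGG, 33.8% CCAAT and 14.0% AGGTCA.

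Abca8a and Abca8b are neighbouring genes of one cluster on chromosome 11 that gave different values, and their 250-base windows are shown for comparison (chr11:110095938-110096187 and chr11:109995846-109996095, both minus strand).
Abca8a: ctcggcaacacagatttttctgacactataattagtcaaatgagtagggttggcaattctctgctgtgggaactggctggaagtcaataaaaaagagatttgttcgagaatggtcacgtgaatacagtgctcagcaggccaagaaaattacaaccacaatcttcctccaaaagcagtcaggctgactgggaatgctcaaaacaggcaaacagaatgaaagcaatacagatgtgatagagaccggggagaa
Abca8b: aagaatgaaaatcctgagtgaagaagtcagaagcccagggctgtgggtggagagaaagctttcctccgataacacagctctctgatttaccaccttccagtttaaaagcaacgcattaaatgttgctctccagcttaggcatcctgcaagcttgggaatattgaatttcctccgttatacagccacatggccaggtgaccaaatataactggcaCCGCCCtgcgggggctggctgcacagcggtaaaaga
The Abca8a window has 43.2% G and C and no match to any of the 7 motifs, and the Abca8b window has 48.8% and 1 GGGCGG on the opposite strand. The antioxidant core is in 10.2% of windows, the LXR element in 0.015% and the PPAR element in 0.034%, and none of these 3 is in the windows printed here.

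Levels between members were compared per length, as CPM per kilobase of gene. Abcc2, the canalicular exporter of bilirubin glucuronide, averaged 183 ± 37.4 over all 6 libraries (SD, n = 6) and Abcb4, the canalicular phosphatidylcholine flippase, 152 ± 28.2. Abcd3, a peroxisomal transporter for fatty acyl-CoA, averaged 119 ± 42.4. Lengths were those deposited, 4074 bases for Abcb4 and 3399 for Abcd3. GENCODE M21 gives them 9383 and 6593 exon bases, which would lower both levels and their ranks. Lengths of other members differ too, among them Abcd4 (2527 deposited, 8006 in GENCODE M21), Abcb1b (4344 and 7990), Abcg2 (4987 and 8153) and Abcg1 (4066 and 7298). Abcc6, Abcc3, Abcg5, Abca1, Abca6 and Abcg8 followed between 96.8 and 59.9, and these 9 genes stood at 36.4 or above in each library. The range of Abcg8 (36.4 to 82.0) did not overlap that of the next gene, Abcg2 (11.3 to 25.3). Among 48 neighbouring pairs in the order 46 had ranges that overlapped over both groups together, and differences between neighbours were not tested. Within the scrambled group alone Abcb4 (142, 133 and 129) lay above Abcd3 (78.3, 76.2 and 99.1). In all, 38 members averaged at least 1 CPM per kilobase with the deposited lengths. Abcb1b, at 1.03, would fall below 1 with the longer one.

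**Figure D1:**
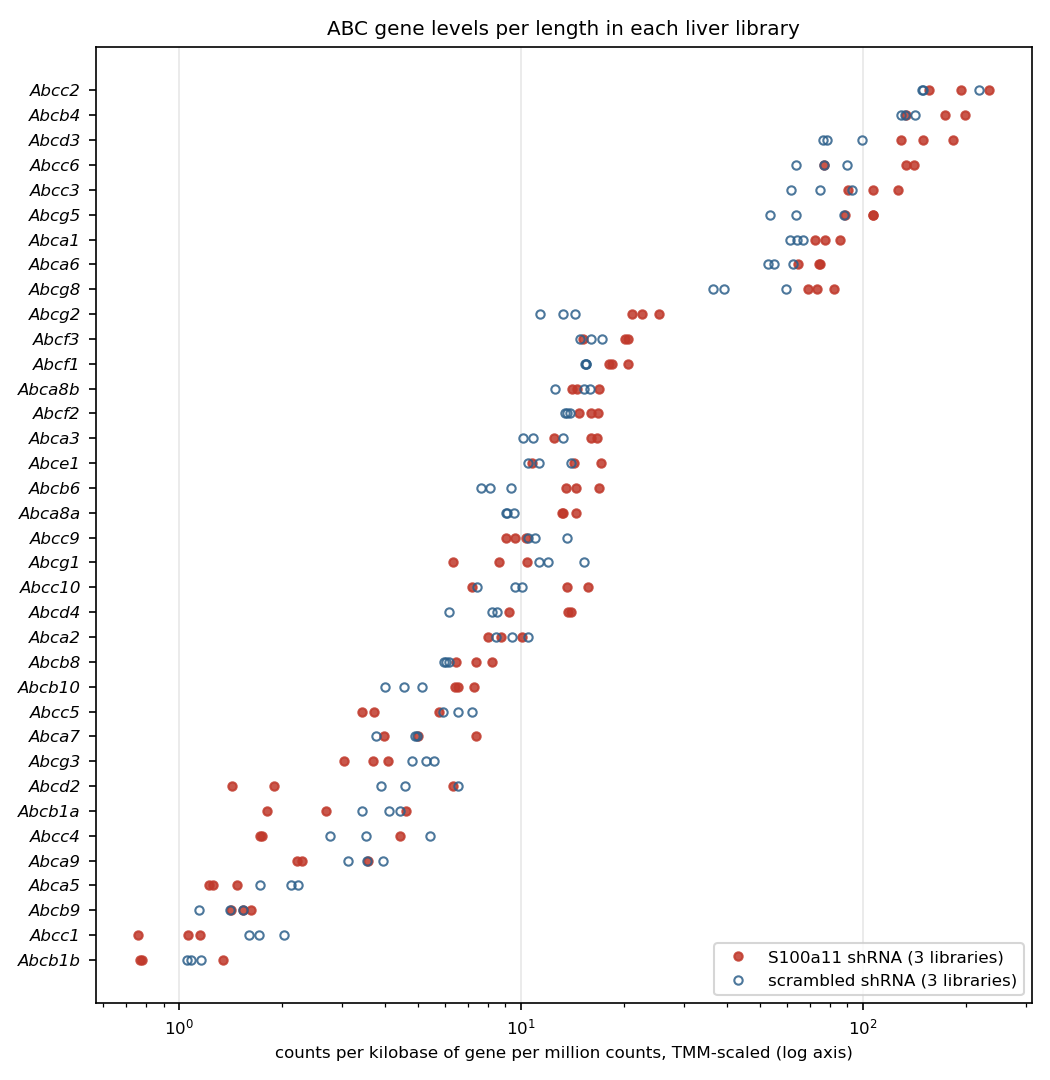
Level of 36 ABC genes with a mean of at least 1, in CPM per kilobase of gene on a log axis, with 1 point per library (filled, 3 libraries labelled S100a11 shRNA; open, 3 scrambled libraries). The top 9 genes, from Abcc2 at 183 to Abcg8 at 59.9 on average, are separated from the other members by a gap.

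The 11 members below that level held 1 to 881 counts over all 6 libraries. Among them Abca12, Abca15, Abca16, Abca17, Abcb5 and Abcc8 were not tested, with at most 8 counts in any library and at most 22 in all 6. Abcc8, the sulfonylurea receptor of pancreatic beta cells, held 13 counts in all. No member was at 0 in every library.

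Of the 43 tested members 8 passed the threshold, an adjusted p under 0.05 from edgeR's quasi-likelihood test with Benjamini-Hochberg adjustment over all 19352 tested genes. That is 18.6% of tested members, beside 14.1% of all genes. Abcd3, Abcb6, Abcg2, Abcg8, Abca8a and Abcb10 rose, and Abcc1 and Abca5 fell. The 6 rises are 14.0% of members beside 5.82% of all genes, and the 2 falls 4.65% beside 8.28%. On the TMM scale the groups did not overlap in 22 members, 13 higher and 9 lower. That is 51.2% beside 34.7% of all genes (16.5% higher and 18.1% lower). The median log2 change was 0.21 in members and 0.04 in all tested genes.

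The balance of calls depended on scaling. The TMM factors were 0.932, 0.896 and 0.822 against 1.1, 1.19 and 1.11, so the factors themselves were apart between groups. With library totals alone the log2 changes of Abca1, Abca6, Abcb8, Abcf1 and Abcf2 were -0.07, -0.03, -0.07, -0.06 and -0.14. On the TMM scale each of these was higher without overlap. With library totals alone 2 members rose (Abcb6 and Abcg2) and 10 fell, beside 397 rises and 3970 falls among all 19352 tested genes. The shares called were 27.9% of members and 22.6% of all genes. The medians were -0.15 in members and -0.32 in all genes. With upper-quartile factors 4 members rose and 4 fell, beside 816 rises and 1980 falls among all genes (18.6% of members and 14.4% of all genes called). Each of the 8 called members kept its direction in all 14 other settings. The summed CPM of the family was 6567, 7753 and 7651 against 6583, 5335 and 5498, with library 2 just below scrambled library 28, and its share of unscaled counts was 0.612%, 0.694% and 0.629% against 0.725%, 0.636% and 0.610%. The groups overlapped on both scales.

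Single libraries decided how many members were called. Without scrambled library 30 edgeR called 0 of 43 members (14 at an unadjusted p under 0.05), beside 3.66% of all genes. Without scrambled library 31 it called 3 higher and 0 lower (5 lower at an unadjusted p under 0.05), 6.98% of members beside 5.57% of all genes. Without scrambled library 28 it called 4 higher and 1 lower, 11.6% beside 7.74%. Without library 3 it called 2 higher and 1 lower, 6.98% beside 5.12%, and without library 2600 it called 5 higher and 4 lower, 20.9% beside 10.4%. Without library 2, where S100a11 was not low, it called 9 higher and 8 lower, including all 8 of the first set, 39.5% of members beside 21.1% of all genes.

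**Figure D2:**
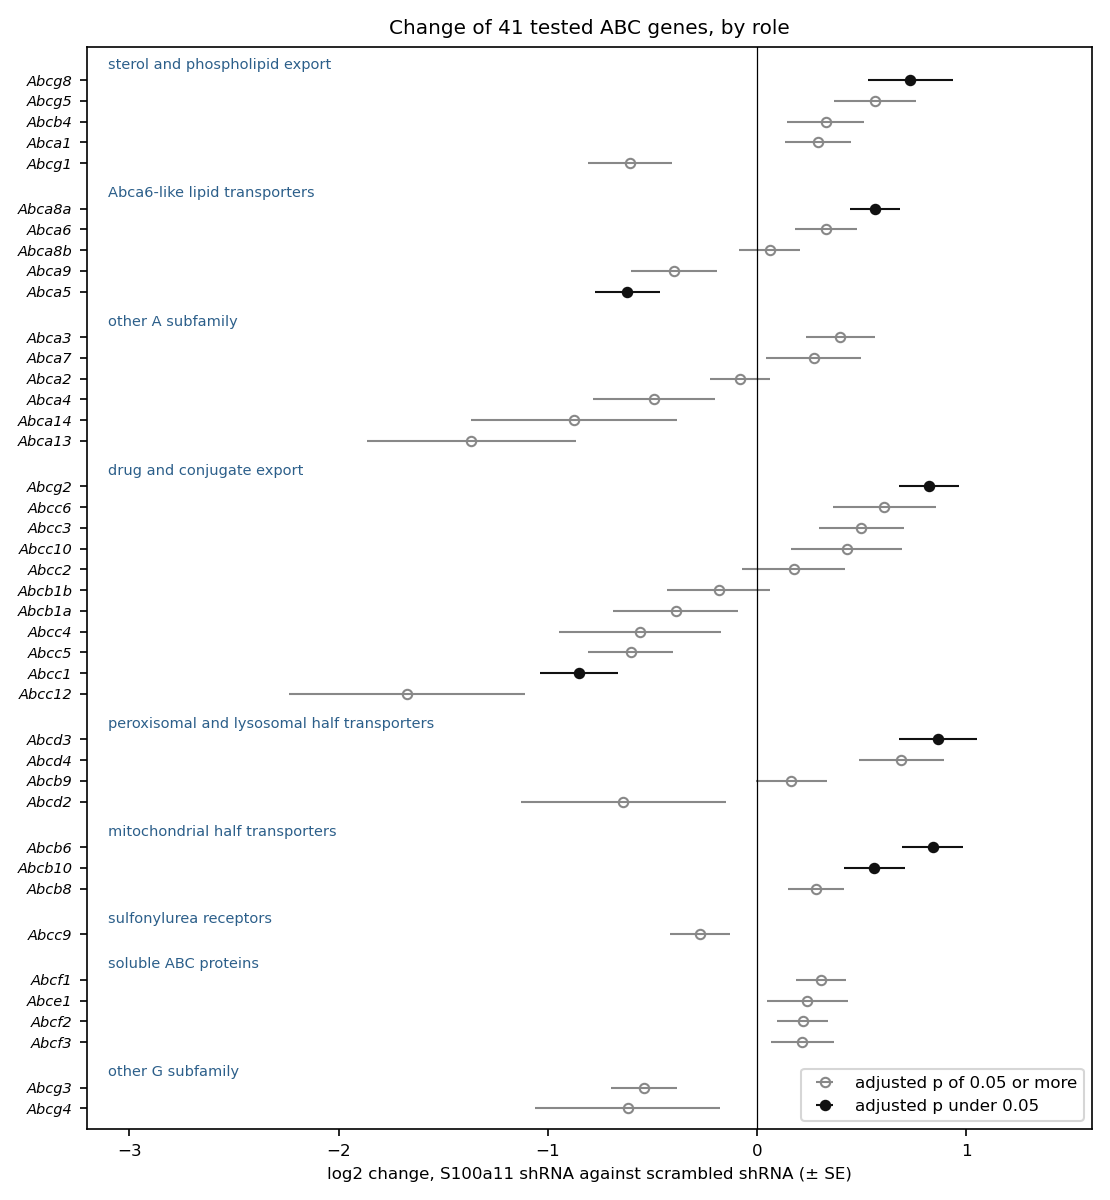
Log2 change of 41 tested ABC genes in the S100a11 shRNA group against the scrambled group, with the SE as bars, ordered by role. Filled points passed an adjusted p of 0.05: 6 lie right of 0 and 2 left of it, and changes run from -1.67 (Abcc12) to 0.86 (Abcd3).

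Genes of sterol and phospholipid export gave 1 rise and 0 falls among 5 tested members, beside 5.82% and 8.28% of all genes. With so few genes in a role, counts of 0 or 1 do not set a role apart from those shares. Abcg8 stood at 259, 307 and 275 CPM against 224, 146 and 136 CPM. All 3 libraries labelled S100a11 shRNA were above every scrambled library, and Abcg8 was 1.66-fold higher (mean CPM ± SD of 280.4 ± 24.6 and 169 ± 47.7, n = 3 per group, edgeR adjusted p = 0.0439). The Abcg8 call ended without library 3, 2600, 30 or 31 (adjusted p of 0.0866 to 0.171), with upper-quartile factors (0.0690), library totals alone (0.189), the 1 CPM filter (0.0501) or edgeR's legacy fit (0.0503). Its partner Abcg5, on the other side of the stretch printed above, stood at 239.9, 290.4 and 290.5 CPM against 238, 172 and 145 CPM. The order of the groups was that of Abcg8, with library 2 barely above scrambled library 28, and the Abcg5 log2 change of 0.56 ± 0.20 (SE) did not pass (edgeR adjusted p = 0.0931, or 0.0446 without scrambled library 28). Exons of Abcg5 and Abcg8 overlap by 82 bases on opposite strands, 3.0% and 2.2% of their exon bases.

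The other lipid exporters did not pass. Abca1, which hands cholesterol and phospholipid to apolipoprotein A-I, stood at 747, 885 and 801 CPM against 691, 634 and 665 CPM. The groups did not overlap, and the log2 change was 0.29 ± 0.16 (SE, edgeR adjusted p = 0.262). Abcb4 stood at 545, 707 and 809 CPM against 577, 539.9 and 525 CPM. Here libraries 3 and 2600 were high and library 2 lay among the scrambled libraries (log2 change 0.33 ± 0.18 SE, edgeR adjusted p = 0.273). Abcg1, which moves sterols toward HDL and is prominent in macrophages, had the opposite sign, at 42.2, 25.6 and 35.0 CPM against 48.6, 46.0 and 61.9 CPM. All scrambled libraries were above the other 3, with a log2 change of -0.61 ± 0.20 (SE) and an edgeR adjusted p of 0.0791. Abcg1 passed with upper-quartile factors (0.0432), library totals alone (0.0118), DESeq2 (0.0449) and without library 2 (0.0136).

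A macrophage list was lower in sum, a direction shared with Abcg1 and not with Abca1. Of 10 macrophage markers 9 fell and 0 rose, beside 8.28% and 5.82% of all genes. The markers were Adgre1, Cd68, Trem2, Gpnmb, Cd9, Itgax, Lpl, Ccr2, Cd63 and Mmp12, and the counts describe these genes only. Their summed level was 129 to 248 CPM against 557 to 753 CPM. None of these macrophage markers was at 0 in every library. Of 8 Kupffer cell markers 1 rose and 1 fell (161 to 338 against 238 to 362 CPM in sum). In these bulk samples fewer cells of a type and less RNA per cell cannot be told apart, and the part of macrophage RNA in the Abcg1 values was not tested.

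The 5 lipid transporter genes that stand side by side on chromosome 11, from 109932190 to 110337716 in the deposited coordinates (build mm10), did not move together. Abca8a stood at 83.4, 90.7 and 82.3 CPM against 56.7, 57.1 and 59.8 CPM. The groups were well apart and Abca8a was 1.48-fold higher (mean CPM ± SD of 85.4 ± 4.55 and 57.9 ± 1.68, n = 3 per group, edgeR adjusted p = 0.0179). Abca5, a lysosomal member at one end of the cluster, stood at 16.9, 14.3 and 14.0 CPM against 19.7, 24.3 and 25.4 CPM. Each library labelled S100a11 shRNA was below every scrambled library, and Abca5 was 1.54-fold lower (mean CPM ± SD of 15.1 ± 1.57 and 23.1 ± 3.05, n = 3 per group, edgeR adjusted p = 0.0332). The Abca8a call ended without library 3, 28, 30 or 31 (adjusted p of 0.0633 to 0.0926) and with library totals alone (log2 change 0.20 from 0.56, adjusted p = 0.295), and the Abca5 call without library 3, 2600, 30 or 31 (0.0744 to 0.139).

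The genes between them and beside them gave intermediate values. Abca8b, the neighbour of Abca8a, stood at 108, 105 and 126 CPM against 118, 93.5 and 113 CPM. These groups overlapped throughout, with a log2 change of 0.06 ± 0.14 (SE, edgeR adjusted p = 0.822), and the difference between Abca8a and Abca8b was not tested. Abca6 stood at 349, 400.1 and 403 CPM against 337, 296 and 284 CPM, without overlap (log2 change 0.33 ± 0.15 SE, edgeR adjusted p = 0.171). Abca9 stood at 17.7, 18.5 and 28.7 CPM against 25.0, 31.8 and 28.6 CPM. Library 2600 lay among the scrambled libraries, and without it Abca9 passed (log2 change -0.67, edgeR adjusted p = 0.0374), as it did with library totals alone (0.0203). Abca8a and Abca8b transcripts share 0.56% and 0.49% of their 75-base words, so few reads of that length match both.

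Of the drug and conjugate exporters 1 rose and 1 fell among 11 tested, near the 5.82% and 8.28% of all genes. Abcg2, the breast cancer resistance protein that exports urate, porphyrins and drugs, stood at 112, 126 and 105 CPM against 71.8, 56.5 and 66.0 CPM. The lowest library labelled S100a11 shRNA was far above the highest scrambled one, and Abcg2 was 1.77-fold higher (mean CPM ± SD of 115 ± 10.6 and 64.8 ± 7.76, n = 3 per group, edgeR adjusted p = 0.00939). Its call ended in 1 of 14 settings, without scrambled library 30 (adjusted p = 0.0541). Abcc1, which exports glutathione conjugates such as leukotriene C4, stood at 13.1, 9.38 and 14.2 CPM against 25.1, 19.9 and 21.2 CPM. The groups did not overlap and Abcc1 was 1.80-fold lower (mean CPM ± SD of 12.2 ± 2.52 and 22.0 ± 2.71, n = 3 per group, edgeR adjusted p = 0.0208). Without library 3, 28, 30 or 31 its adjusted p was 0.0588 to 0.0767.

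The cholangiocyte list and the stellate cell and pericyte list were lower in sum, as was the macrophage list above. Abcc9, a receptor of pericytes, had a log2 change of -0.27 (edgeR adjusted p = 0.244). Of 10 cholangiocyte markers 7 fell and 1 rose, beside 8.28% and 5.82% of all genes. Their sum was 166 to 189 CPM against 515 to 631 CPM. Of 10 stellate cell and pericyte markers 6 fell and 0 rose (404 to 682 against 851 to 1227 CPM). Without library 3, 2600, 28, 30 or 31 the falls were 2 or 3. Over all genes they were 585, 1259, 1030, 503 and 679, beside 1602 in the main setting. Of 10 lymphocyte markers 1 fell and 0 rose, near the shares of all genes (17.5 to 21.6 against 31.6 to 65.0 CPM). None of these 30 markers was at 0 in every library, and the part of such cells in the values of Abcc1 or Abca5 was not tested.

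The abundant conjugate exporters did not pass. Abcc2 stood at 1332, 1998 and 1646 CPM against 1866, 1277 and 1267 CPM. The groups overlapped, and the log2 change was 0.17 ± 0.25 (SE, edgeR adjusted p = 0.684). Abcc3, the basolateral exporter of glucuronides, stood at 609.8, 516 and 719 CPM against 529, 351 and 427 CPM, with library 3 below scrambled library 28 (log2 change 0.50 ± 0.20 SE, edgeR adjusted p = 0.139). Abcc6, which releases ATP and so raises the mineralisation inhibitor pyrophosphate, stood at 419.6, 728 and 768 CPM against 488, 420.5 and 347 CPM. Libraries 3 and 2600 were high and library 2 was not, and Abcc6 passed only without library 2 among the 14 other settings (log2 change 0.80, edgeR adjusted p = 0.0146, from 0.61 and 0.138). Abcc10 had the same layout, at 49.3, 93.2 and 107 CPM against 68.9, 65.9 and 50.8 CPM, and also passed only without library 2 (log2 change 0.66 from 0.43, edgeR adjusted p = 0.0213 from 0.319).

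Other exporters of the C subfamily were lower without passing. Abcc5, a cyclic nucleotide exporter, stood at 36.4, 39.4 and 61.0 CPM against 76.0, 69.3 and 62.5 CPM. The highest library labelled S100a11 shRNA was just below the lowest scrambled one, with a log2 change of -0.60 ± 0.20 (SE, edgeR adjusted p = 0.0818). Abcc5 passed with library totals alone (0.00624), DESeq2 (0.0462) and without library 2600 (0.0160). Abcc12 gave the lowest log2 change of the family, -1.67 ± 0.56 (SE, edgeR adjusted p = 0.0826), at 1.61, 0.30 and 1.14 CPM against 5.38, 1.79 and 2.58 CPM. These levels rest on 19 to 362 counts per library, and Abcc12 passed with DESeq2 (0.0166), library totals alone (0.0293) and without library 2 (0.0284).

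Abcd2, Abcc4 and Abcb1a, like S100a11, were low in libraries 3 and 2600 and not in library 2. Abcd2, a peroxisomal transporter for fatty acyl-CoA, stood at 34.9, 7.90 and 10.5 CPM against 25.3, 21.5 and 36.2 CPM. Abcc4, which exports cyclic nucleotides and bile acids across the basolateral membrane, stood at 25.4, 10.04 and 9.87 CPM against 31.0, 15.8 and 20.1 CPM. Abcb1a, which encodes P-glycoprotein together with Abcb1b, stood at 25.2, 14.7 and 9.87 CPM against 24.2, 18.7 and 22.5 CPM. In each gene library 2 lay within or above the scrambled range and the other 2 libraries below it. With all libraries the log2 changes were -0.64, -0.56 and -0.39 and the edgeR adjusted p was 0.428, 0.375 and 0.426. Without library 2 the log2 changes were -1.62, -1.20 and -0.86 and each gene passed the threshold, but the genes were picked for this layout, so these values describe it and are no test of it. Abcc4 and Abcb1a, like Abcb1b, Abcb9 and Abcg3, were given in every library after their values were seen.

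This layout was found in 4 of 43 tested members, beside 7.09% of all tested genes. In 6 further members libraries 3 and 2600 were above every scrambled library and library 2 was not, beside 11.3% of all genes. They were Abca7, Abcb4, Abcb9, Abcc6, Abcc10 and Abcf3. Abcb1a and Abcb1b transcripts share 11.9% and 7.99% of their 75-base words, so the split of reads between them is uncertain. Abcb1b stood at 3.38, 5.85 and 3.34 CPM against 4.59, 4.69 and 5.02 CPM, an order unlike that of Abcb1a.

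**Figure D3:**
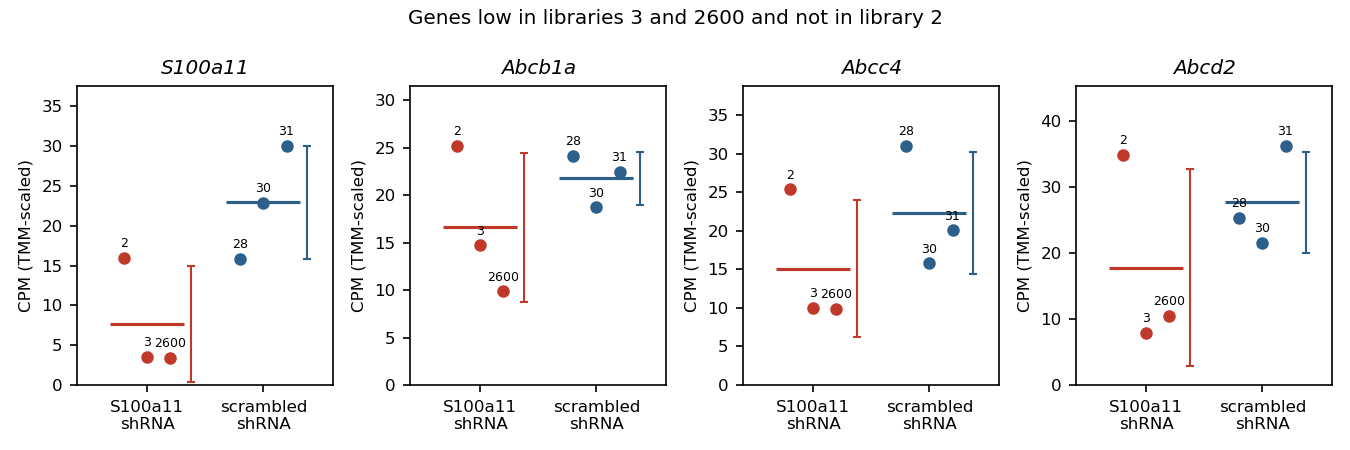
CPM of S100a11 and of 3 ABC genes (Abcb1a, Abcc4 and Abcd2) that were below every scrambled library in libraries 3 and 2600 and not in library 2, with 1 labelled point per library, lines for group means and bars for the SD. Abcd2 stands at 34.9 CPM in library 2 and at 7.90 and 10.5 CPM in libraries 3 and 2600, and the axis starts at 0 in every panel.

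Transporters of peroxisomes and lysosomes gave 1 rise and 0 falls among 5, beside 5.82% and 8.28% of all genes. Abcd3, also known as the 70-kDa peroxisomal membrane protein, stood at 621, 508 and 439.7 CPM against 266, 259 and 337 CPM. Every library labelled S100a11 shRNA was above every scrambled library, and Abcd3 was 1.82-fold higher (mean CPM ± SD of 523 ± 91.6 and 287 ± 42.98, n = 3 per group, edgeR adjusted p = 0.0187). Its call ended without library 3, 28 or 30 (adjusted p of 0.0575 to 0.0909) and with library totals alone (log2 change 0.52 from 0.86, adjusted p = 0.0884). The log2 change of Abcd2 was -0.64 ± 0.49 (SE) with all libraries. Abcd4, the lysosomal cobalamin transporter, stood at 23.2, 34.7 and 35.5 CPM against 21.6, 20.8 and 15.6 CPM. Its groups did not overlap, and it missed the threshold (log2 change 0.69 ± 0.20 SE, edgeR adjusted p = 0.0535), which it passed with DESeq2 (0.0215), with no filter (0.0488) and without library 2 (0.00951). The lysosomal peptide transporter gene Abcb9 stood at 8.26, 9.43 and 8.96 CPM against 8.20, 8.94 and 6.66 CPM.

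A list for peroxisomal acyl-CoA oxidation, which also holds peroxisomal genes of other functions, moved in the direction of Abcd3. Of 16 listed genes 10 rose and 0 fell, beside 5.82% of all genes, and the list median was 0.76. Pex11a, a peroxisome division factor, was 2.24-fold higher (edgeR adjusted p = 0.00604), the membrane channel gene Pxmp2 1.72-fold (0.00786) and the thioesterase Acot8 1.75-fold (0.00972). The calls of Pxmp2 and Acot8 ended with library totals alone (0.0566 and 0.0528) and without scrambled library 30 (0.0516 and 0.0532). With library totals alone 4 of the 16 rose, and without scrambled library 28, 30 or 31 the count was 6, 1 or 4. Over all genes the rises in these settings were 397, 508, 221 and 411, beside 1126 in the main one. The change of Abcd3, 0.86, lies among those of its list, whereas that of Abcd2, -0.64, lies below every one of the 16.

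Mitochondrial transporters gave 2 rises and 0 falls among 4, beside 5.82% and 8.28% of all genes. Abcb6, a transporter linked to porphyrin handling, stood at 71.8, 76.8 and 89.8 CPM against 49.8, 40.4 and 43.1 CPM. The groups were well apart, and Abcb6 was 1.79-fold higher (mean CPM ± SD of 79.5 ± 9.28 and 44.4 ± 4.82, n = 3 per group, edgeR adjusted p = 0.00914). Its call ended in 1 of 14 settings, without scrambled library 30 (adjusted p = 0.0544). The value has a limit of identity: 55.2% of the exon bases of Abcb6 also belong to Gm29253 on the same strand, which held 38369 counts over all libraries beside 23250 for Abcb6. Gm29253 rose as well (log2 change 0.73, edgeR adjusted p = 0.010), and how reads in the shared exons were assigned is not given. The neighbouring gene Atg9a also rose (log2 change 0.53, edgeR adjusted p = 0.0237), so the rise was not particular to Abcb6 at this locus.

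Abcb10, an inner-membrane protein needed for heme synthesis in red cell precursors, stood at 28.2, 31.3 and 27.5 CPM against 19.6, 17.3 and 22.1 CPM. Its groups did not overlap, and Abcb10 was 1.47-fold higher (mean CPM ± SD of 29.0 ± 2.01 and 19.7 ± 2.43, n = 3 per group, edgeR adjusted p = 0.0352). The call ended without library 3, 28, 30 or 31 (adjusted p of 0.0618 to 0.161), with upper-quartile factors (0.0508) and with library totals alone (log2 change 0.20 from 0.56, adjusted p = 0.352). Abcb8, which takes part in mitochondrial iron export, stood at 35.0, 38.9 and 30.5 CPM against 28.5, 28.3 and 29.2 CPM, without overlap (log2 change 0.28 ± 0.14 SE, edgeR adjusted p = 0.204).

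Of 18 listed genes of heme and iron-sulfur synthesis 6 rose and 0 fell, beside 5.82% of all genes, with a median of 0.37. Cpox, coproporphyrinogen oxidase, was 2.06-fold higher (mean CPM ± SD of 184 ± 9.41 and 89.4 ± 14.97, n = 3 per group, edgeR adjusted p = 0.00596). Alas1, the rate-limiting enzyme of hepatic heme synthesis, was 2.90-fold higher (edgeR adjusted p = 0.0213, or 0.0735 and 0.0677 without library 3 and scrambled library 30). The iron-sulfur carrier Glrx5 was 1.92-fold higher (0.0344), a call that ended without library 2600, 28, 30 or 31 (adjusted p of 0.0540 to 0.139) and with library totals alone (0.113). With library totals alone 2 of the 18 rose, with upper-quartile factors 3, and without library 3, 2600, 28, 30 or 31 the count was 2, 3, 2, 1 or 2. Over all genes the rises in these settings were 397, 816, 427, 814, 508, 221 and 411, beside 1126 in the main one.

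**Figure D4:**
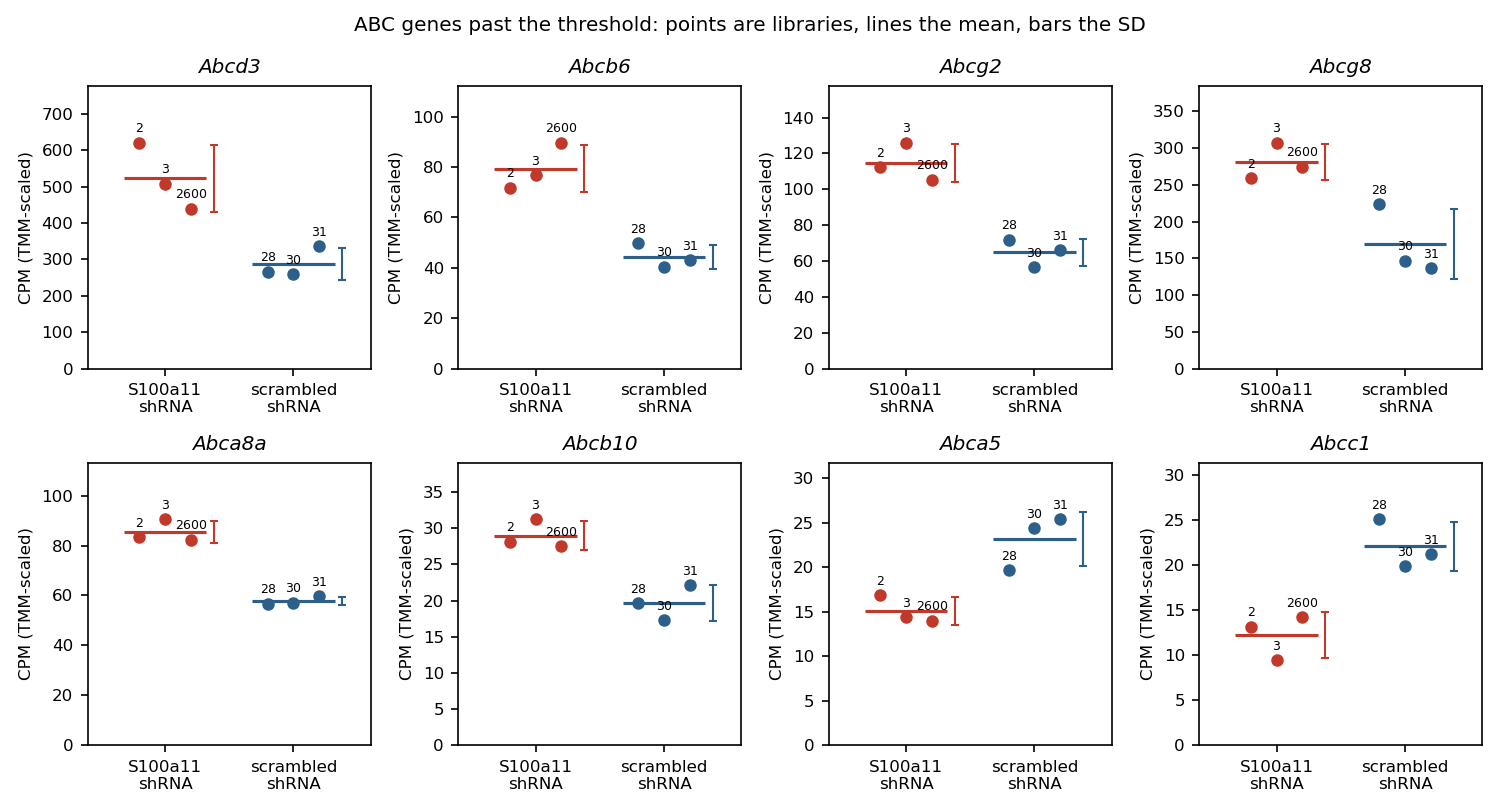
CPM of the 8 ABC genes past the threshold in each library, labelled by number, with lines for group means and bars for the SD (n = 3 each). The 6 genes that rose lie above every scrambled library in all 3 libraries labelled S100a11 shRNA, and Abca5 and Abcc1 lie below, with axes that start at 0.

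**Figure D5:**
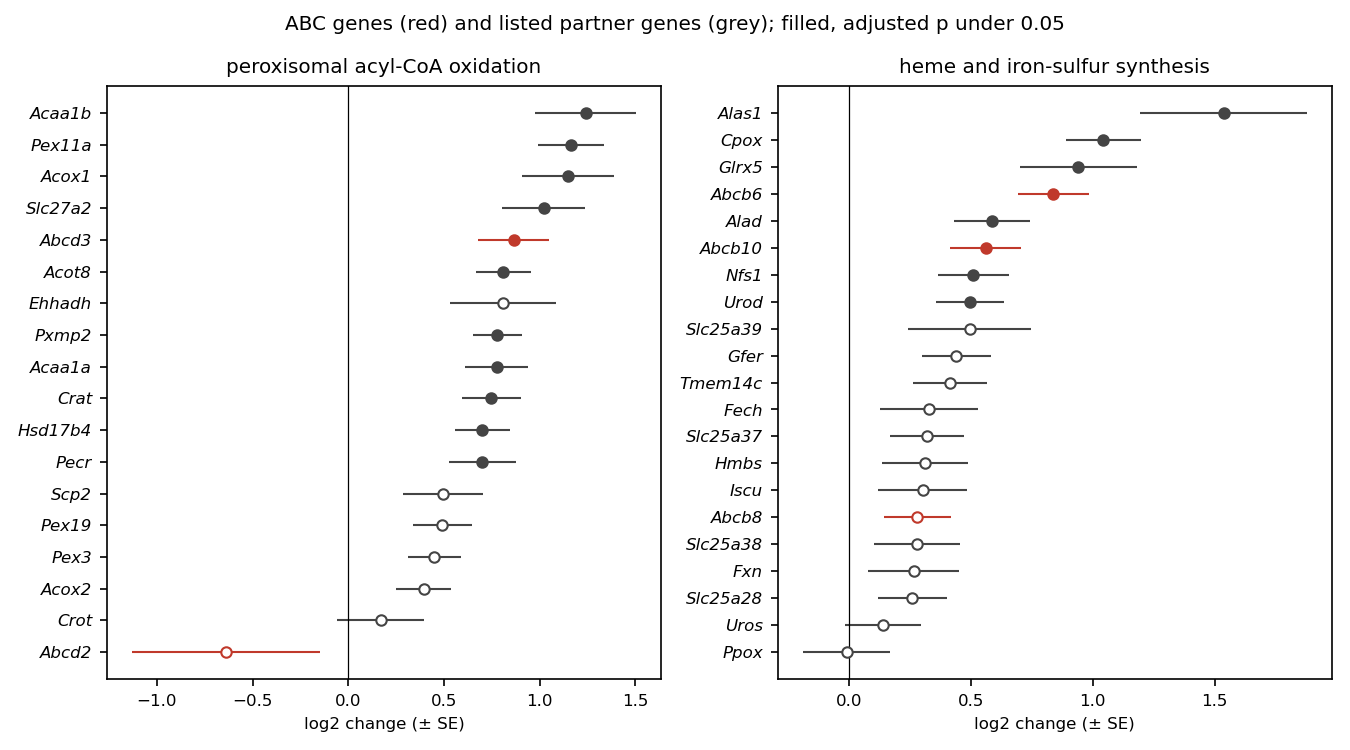
Log2 change with SE of peroxisomal and of heme and iron-sulfur genes (grey) beside peroxisomal and mitochondrial ABC transporters (red), filled where the adjusted p was under 0.05. Abcd3 at 0.86 lies among the 16 peroxisomal genes and Abcd2 lies left of them, while Abcb6 at 0.84 and Abcb10 at 0.56 lie in the upper part of the 18 heme and iron-sulfur genes.

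The soluble members, which have no membrane domain, gave 0 calls of 4 with edgeR, DESeq2 or limma voom (1 at an unadjusted p under 0.05 with edgeR). Of all genes 14.1%, 19.4% and 13.8% were called. Abcf1, a translation initiation factor, stood at 79.9, 90.8 and 81.5 CPM against 68.2, 68.2 and 67.8 CPM. The groups did not overlap, and the log2 change was 0.30 ± 0.12 (SE, edgeR adjusted p = 0.128). Abcf2 stood at 41.2, 43.2 and 38 CPM against 35.0, 35.8 and 34.5 CPM, also without overlap, and Abcf3 at 54.0, 71.5 and 73.1 CPM against 61.1, 56.8 and 53.0 CPM, with overlap. Abce1, the ribosome recycling factor, stood at 65.4, 54.5 and 41.0 CPM against 43.1, 39.9 and 53.2 CPM, with library 2 high. Of 9 listed genes of ribosome recycling and eIF2, 1 rose and 0 fell, beside 5.82% and 8.28% of all genes. It was Hbs1l, which acts with Pelo on stalled ribosomes, 1.5-fold higher (edgeR adjusted p = 0.0213, or 0.0588 to 0.113 without library 3, 28, 30 or 31 and 0.240 with library totals alone).

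Abcc9, the sulfonylurea receptor of vascular smooth muscle and pericytes, stood at 68.2, 72.4 and 78.1 CPM against 78.8, 82.7 and 103 CPM. Library 2600 was just below scrambled library 28, so the groups did not overlap, and the log2 change was -0.27 ± 0.14 (SE, edgeR adjusted p = 0.244, or 0.0133 with library totals alone). Its pore partner Kcnj8 had a log2 change of -0.53 (edgeR adjusted p = 0.273), and Kcnj11 was not tested. Abcg3, a rodent member of the G subfamily, stood at 13.1, 10.7 and 14.5 CPM against 19.8, 17.0 and 18.7 CPM. The groups did not overlap, and Abcg3 narrowly missed the threshold (log2 change -0.54 ± 0.16 SE, edgeR adjusted p = 0.0543), passing it in 7 of 14 other settings, among them limma voom (0.0481) and DESeq2 (0.0201).

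The remaining members of the A subfamily gave 0 calls of 6 tested with edgeR, DESeq2 or limma voom (2 at an unadjusted p under 0.05 with edgeR). Of all genes 14.1%, 19.4% and 13.8% were called. Abca3, known for loading surfactant lipid in lung, stood at 146, 110.0 and 141 CPM against 95.5, 88.9 and 117 CPM. Library 3 lay inside the scrambled range, and the log2 change was 0.40 ± 0.16 (SE, edgeR adjusted p = 0.143). Abca2, an intracellular lipid transporter, stood at 72.8, 66.7 and 84.1 CPM against 87.7, 70.6 and 78.3 CPM, and Abca7, which moves phospholipid, at 26.8, 33.8 and 50.0 CPM against 33.4, 33.0 and 25.3 CPM. Both overlapped between groups, with adjusted p of 0.756 and 0.476, and Abca2 passed as lower with library totals alone (log2 change -0.44, edgeR adjusted p = 0.0420). Abca4, Abca13 and Abca14 stood under 2.17 CPM in every library and Abcg4 under 0.43 CPM, with log2 changes of -0.49, -1.37, -0.87 and -0.62. Abca14 passed without library 3 (log2 change -1.88, edgeR adjusted p = 0.0330) and Abca13 with library totals alone (-1.71, 0.0378), on 62 counts over all libraries.

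Genes that sense or handle the same cargo were counted from further lists. Of all genes 5.82% rose and 8.28% fell, and the single fall among 12 LXR response genes is near that share. Of 12 LXR response genes, the sterol receptors and their targets without ABC genes, 0 rose and 1 fell: Arl4c was 1.86-fold lower (edgeR adjusted p = 0.0469), a call that ended with RLE size factors (0.05) and without library 3, 2600, 28, 30 or 31 (0.0873 to 0.147). Of 14 genes of HDL and sterol handling 2 rose and 2 fell, with 4 falls under library totals alone. Over all genes 3970 fell in that setting, beside 1602 in the main one. Lcat, which esterifies HDL cholesterol, was 1.98-fold higher (mean CPM ± SD of 185 ± 13.9 and 93.5 ± 19.0, n = 3 per group, edgeR adjusted p = 0.00875) and passed in every setting. Cyp27a1, sterol 27-hydroxylase, was 1.87-fold higher (0.0339, or 0.0684 to 0.119 without library 3, 2600, 28, 30 or 31 and 0.103 with library totals alone). Npc1l1 fell from 0.15 to 0.036 CPM (edgeR adjusted p = 0.0430), a call that ended with DESeq2 (0.134), the legacy fit (0.0536), no filter (0.0886) and without library 2, 3, 2600, 28 or 30 (0.0637 to 0.172). Apoa4, named after its values were seen, was 2.38-fold lower (0.0432, or 0.0750 to 0.150 without library 3, 2600, 28, 30 or 31).

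The shares of all genes, to be read beside the counts that follow, were 5.82% higher and 8.28% lower. Among 12 genes of the CAR, PXR and NRF2 systems, the sensors of xenobiotics and oxidants that regulate several exporters, 2 rose and 0 fell. They were the receptors themselves: Nr1i3 (CAR) was 3.70-fold higher (mean CPM ± SD of 975 ± 355 and 263 ± 67.8, n = 3 per group, edgeR adjusted p = 0.00828) and Nr1i2 (PXR) 1.94-fold higher (0.00836). Of 14 tested carriers and canalicular partner genes outside the ABC family 6 rose and 1 fell, or 3 and 1 with library totals alone. Without library 3, 28, 30 or 31 the rises were 2, 3, 1 or 2. Over all genes they were 427, 508, 221 and 411, beside 1126 in the main setting and 397 with library totals alone. The organic anion carrier Slco1a1 was 18.6-fold higher (edgeR adjusted p = 0.00585), Slc22a7, another organic anion carrier, 4.53-fold higher (0.0125, or 0.0592 without scrambled library 30) and the membrane linker Ezr 1.93-fold lower (0.00806). ABC proteins with symbols of another form gave 1 fall of 3. It was Cftr, a chloride channel, 8.51-fold lower (edgeR adjusted p = 0.00596), and the antigen peptide transporters Tap1 and Tap2 had log2 changes of 0.21 and 0.09 (adjusted p of 0.287 and 0.692).

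Markers of hepatocytes, the main cell type of liver, were 37328 to 48267 CPM in sum against 29302 to 36000 CPM. All 10 had a log2 change above 0, 2 rose and 0 fell (1 with library totals alone or without library 3, 2600, 28 or 31, 0 without scrambled library 30, and 4 with DESeq2), and their median was 0.41. Of 10 endothelial markers 2 rose and 1 fell (669 to 943 against 658 to 732 CPM). Beside the counts of both lists stand 5.82% of all genes higher and 8.28% lower in the main setting. Over all genes 1126 rose there, 397 with library totals alone and 1621 with DESeq2. Without library 3, 2600, 28, 30 or 31 the rises over all genes were 427, 814, 508, 221 and 411. The part of cell makeup in the rises of Abcd3, Abcb6, Abcg2, Abcg8, Abca8a and Abcb10 was not tested.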

How the data were processed

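Libraries came from a stranded kit that removes ribosomal RNA, per the labels' protocols. The authors deposited unnormalized counts for each gene. Build mm10 is named in the submitters' processing notes, and aligner and counter were not given in the sources used here. Members and lists were chosen with earlier results of these data known, and some family genes, among them 2 that the counts include, are not reported here.

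The main test was run in edgeR 4.0.16 under R 4.3.3: filterByExpr (minimum count 10, minimum total 15), TMM, quasi-likelihood F test without the legacy option, and Benjamini-Hochberg adjustment over 19352 genes at 0.05. Depth was 53517387 to 78091845 counts. No 2 libraries were alike within sampling noise (smallest chi-square per gene, 48.4). By this measure library 2 was nearer to scrambled libraries 28, 30 and 31 (193, 223 and 158) than to libraries 3 and 2600 (235 and 349). Libraries 3 and 2600 were at 147 from each other. The cause was not tested. Of the others, values per library are given for members that passed, members with a mean of at least 20 CPM, and members with an absolute log2 change of at least 1 and a mean of at least 0.5 CPM. Up to 3 genes by p were named from each partner list. Gene length is the deposited column, whose source is not given. GENCODE M21 supplied exons, with identical coordinates for 35 of 49 members. The procedure was tested on simulated data. Alternatives used DESeq2 1.42.0 and limma 3.58.1. Figures used matplotlib 3.10.9.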

Additional observations from a re-analysis of the deposited data

How the results depend on the processing

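No paired analysis was possible because the groups share no replicate numbers. Over 14 other settings, 535 of 600 member values kept their side of the threshold, 33 lost it, 32 gained it, and no called member changed direction. With upper-quartile factors 4 members fell, beside 1980 of all genes, and the family median was 0.116. With library totals alone 397 of all genes rose and 3970 fell, 2 members rose and 10 fell, and the family median was -0.151. The family median was 0.169 with no filter and 0.178 with limma voom. With DESeq2 6 members fell, beside 2132 of all genes. The legacy fit of edgeR, chosen after seeing the data, gave 5 rises and 2 falls of members, beside 1057 and 1489 of all genes. Leaving out 1 library at a time gave 221 to 1806 rises and 503 to 2370 falls over all genes, 0 to 9 rises and 0 to 8 falls of members, and a family median of 0.139 to 0.207. The cause was not tested. With 3 libraries per group, members under 1 CPM rest on few counts.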
